A study of Danio rerio with 4 samples.

Results

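The genes described here make cholesterol, sense sterols, or take up, move and store cholesterol. They were chosen by name, as 34 zebrafish genes placed in pathway order, and were measured in testes of 4-month-old zebrafish kept for 6 weeks with 20 µg/L of microcystin-LR (MCLR) or with none (0 µg/L). MCLR is a cyanobacterial toxin that inhibits the protein phosphatases PP1 and PP2A. Total RNA was labelled with Cy3 and hybridised to 1-colour Agilent arrays, 2 for MCLR and 2 for control. No strain or genotype is given in the labels, and they do not say whether an array stands for 1 fish or a pool. Of the 34 genes, 31 had at least 1 probe matched by transcript identifier, and all 31 passed the filter on dim probes. The other 3, ggps1, scap and soat2, had no matching probe and are not described. The listed gene npc2 was matched under its present name npc2.1. The 31 genes are set beside 24330 genes tested in all.

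Cholesterol is built from acetyl-CoA. The mevalonate stage makes isoprenoid units, with HMG-CoA reductase as its rate-limiting enzyme. Squalene is then formed from these units and closed to lanosterol, and a chain of reductions, demethylations and isomerisations turns lanosterol into cholesterol. When membranes of the endoplasmic reticulum hold little sterol, the transcription factor SREBP leaves with its escort Scap, is cleaved, and switches on most genes of the pathway, while Insig proteins hold it back when sterol is plentiful. In the testis, cholesterol is the starting material of sex steroids in Leydig cells, and in mammals germ cells also accumulate sterol intermediates of the lanosterol stage.

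All arrays shared 1 slide. MCLR samples took positions 1 and 2 and control samples 3 and 4, and the effect of position cannot be told apart from that of the group. Markers of the testis were present throughout: 10 of 10 germ cell, 7 of 7 Sertoli cell and 6 of 6 Leydig cell genes on the array stood well above background on all 4 arrays. Marker genes of other tissues also gave signal. The summed signal of 19 pancreas genes, relative to each array's 75th percentile, was 15.2 and 19.4 in MCLR against 15.7 and 376 in control, and all 19 were highest on control replicate 2. That of 12 brain genes was 9.52 and 6.15 in MCLR against 45.3 and 10.6 in control, with 10 of 12 highest on control replicate 1. For 10 hepatocyte genes it was 23.2 and 43.7 in MCLR against 21.0 and 42.2 in control, higher on replicate 2 of both groups. Leukocyte genes had a summed signal of 17.0 and 25.9 in MCLR against 14.5 and 13.3 in control. Of 11 such genes 10 were higher in MCLR, against 61.4% of all genes, and 7 were highest on MCLR replicate 2. This difference was not tested. The source of these marker signals was not tested, nor was the part of other cells in the values of the sterol genes. In whole testis, fewer cells of a type and less RNA per cell cannot be told apart. The number of arrays limits precision, and p-values measure only the spread between these samples, which may be technical.

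The comparison of MCLR with control asks whether the testis changes its cholesterol genes under the toxin. No sterol gene passed the test. With limma and adjustment over all genes, 0 of 31 had an adjusted p under 0.05, the smallest being 0.674 for fdft1, and the background was the same, with 0% of 24330 genes called. At an unadjusted p under 0.05 there were 0 of 31 sterol genes, against 9.2% of all genes. Most of the latter were dim: 2170 of 2239 had a mean level at or below the array's 75th percentile. Above it the count was 69 of 8207 genes, and 15 of the 31 sterol genes lay there. In the separate fit after background correction 3 sterol genes (ebp, insig1 and pmvk) had such a p, against 623 of 24330 genes. The differences were small. At the median standard error of the comparison as reported, an unadjusted p of 0.05 took a log2 fold change of 0.69. No sterol gene showed as much, so these p-values say nothing about stability or about smaller changes. Log2 fold changes (MCLR over control) ran from -0.59 for pmvk to 0.56 for fdft1, with standard errors of 0.23 to 0.43. For 24 of the 31 genes the 95% interval excluded a 2-fold difference in either direction, and for the other 7 (pmvk, mvda, fdft1, lss, insig1, insig2 and ldlra) it did not.

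The direction was mixed. In all, 18 sterol genes had a negative log2 fold change and 13 a positive one, with a median of -0.07, whereas 38.6% of all genes were negative and the median over all genes was 0.08. Both MCLR arrays lay below both control arrays in 11 of 31 sterol genes, against a background of 9.08% of all genes, and above both in 4 of 31, against 25.3%. All genes with a mean level above 0 on the log2 scale used here, which is the array's 75th percentile, were below in 14.2% of cases and above in 9.14%. The 15 sterol genes of such a level gave 6 below and 1 above. Signs also went with level: 54.2% of all genes with a level above 0 were negative, and 10 of these 15 sterol genes. At a level of 0 or below it was 30.7% of all genes, and 8 of 16 sterol genes. These counts describe the listed genes and were not tested as a set. With quantile normalization 11 genes, not all the same ones, were below, against 13.3% of all genes. In that setting 3 were above, against 4365 of the 24330 genes tested. Without control replicate 2 the split of signs was 15 positive and 16 negative, with a median of -0.0078.

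**Figure D1:**
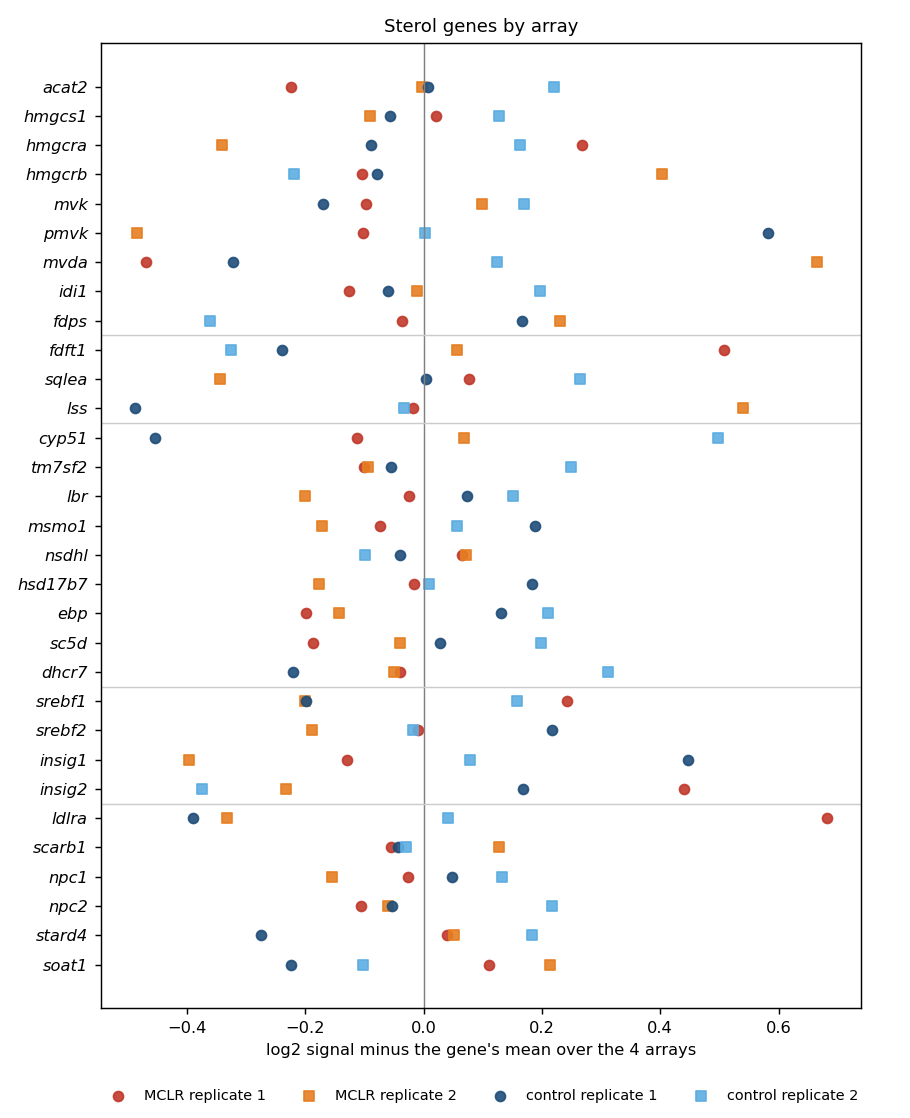
Signal of each sterol gene on each array, on a log2 scale as the difference from the gene's own mean over the 4 arrays, with genes in pathway order from top to bottom and lines between the stages. Control replicate 2 was the highest array for 14 of the 31 genes, against 23.7% of all genes and 41.5% of those with a mean level above 0. The values of the groups overlapped in 16 of the 31, against 15972 of 24330 genes.

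The mevalonate stage was near level between the groups. Of its 9 measured genes, 4 had a positive and 5 a negative log2 fold change, with a median of -0.07, and in 2, acat2 and pmvk, both MCLR arrays lay below both controls, against 9.08% of all genes. In 0 of the 9 they lay above, against 25.3%. With the mean of each gene's probes, 6 of the 9 were positive. The gene acat2 encodes the thiolase that joins acetyl units. It had levels of 0.63 and 0.85 in MCLR against 0.86 and 1.07 in control, as log2 signal relative to each array's 75th percentile, the scale of all levels below. The groups nearly met without overlapping, and their log2 fold change was -0.23, with a standard error of 0.25 from 2 arrays in each group (± marks this SE throughout). For hmgcs1, the HMG-CoA synthase, levels were 2.303 and 2.19 in MCLR against 2.23 and 2.41 in control. These overlapped, and the log2 fold change was -0.07 ± 0.24.

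Zebrafish carry a pair of genes for HMG-CoA reductase. Levels of hmgcra were -0.57 and -1.17 in MCLR against -0.92 and -0.67 in control, so the MCLR arrays lay on either side of the controls (log2 fold change -0.07 ± 0.30). Its dimmer probe went the other way, at 0.14, and was at -0.04 after background correction. Levels of hmgcrb were -2.15 and -1.65 in MCLR against -2.13 and -2.27 in control. One MCLR array stood above the rest, and the log2 fold change was 0.30 ± 0.28. It was 0.55 without MCLR replicate 1 and 0.044 without MCLR replicate 2. The adjusted p was 0.999 for hmgcra and 0.973 for hmgcrb, and the difference between the paralogues was not tested.

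The gene with the most negative value of the whole set was pmvk, for phosphomevalonate kinase, which adds a phosphate to mevalonate phosphate. Its levels were -2.24 and -2.62 in MCLR against -1.56 and -2.14 in control. Both MCLR arrays lay below both controls, control replicate 1 being the highest, and the log2 fold change was -0.59 ± 0.31 (adjusted p = 0.752). It rested partly on that array: leaving out control replicate 1 gave -0.30 and leaving out control replicate 2 gave -0.88, with adjusted p from 0.331 upwards over all settings.

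The kinase gene mvk, upstream of pmvk, was at -0.85 and -0.66 in MCLR and at -0.93 and -0.59 in control. Its log2 fold change was 0.0009 ± 0.26, and its sign turned to negative with quantile normalization (-0.0074), in the deposited table (-0.0096) and with median scaling (-0.095). The decarboxylase gene mvda had the widest spread of the set. It was at 0.99 and 2.12 in MCLR against 1.13 and 1.58 in control, so that a single MCLR array was both high and far from its replicate, and the log2 fold change was 0.20 ± 0.43. The isomerase gene idi1 gave -0.14 ± 0.25 (-0.0078 without control replicate 2) and fdps, whose product makes farnesyl diphosphate, 0.19 ± 0.29.

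The highest values of the set came from the short stage between farnesyl diphosphate and lanosterol. Squalene synthase, fdft1, commits the pathway to sterols. Its levels were -3.50 and -3.95 in MCLR against -4.25 and -4.33 in control. The groups did not overlap, and the log2 fold change was 0.56 ± 0.27 (1.48-fold higher, adjusted p = 0.674). This is a dim probe, although it stood well above background on all 4 arrays. After normexp background correction with an offset of 50, which shrinks folds of dim probes, the log2 fold change was 0.07, with quantile normalization 0.26. Leaving out MCLR replicate 1 gave 0.34 and leaving out MCLR replicate 2 gave 0.79.

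Lanosterol synthase, lss, closes the sterol rings. It had levels of 0.30 and 0.86 in MCLR against -0.17 and 0.28 in control. The lower MCLR array and the higher control array nearly met, and the log2 fold change was 0.52 ± 0.32 (adjusted p = 0.820). A dimmer probe of lss gave 0.26, and leaving out 1 array gave values between 0.24 and 0.80. Between these enzymes stands squalene epoxidase, sqlea, an oxygen-dependent and heavily regulated step. It had levels of -2.54 and -2.96 in MCLR against -2.61 and -2.35 in control, overlapping groups and a log2 fold change of -0.27 ± 0.27. The value was -0.48 without MCLR replicate 1 and -0.057 without MCLR replicate 2.

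**Figure D2:**
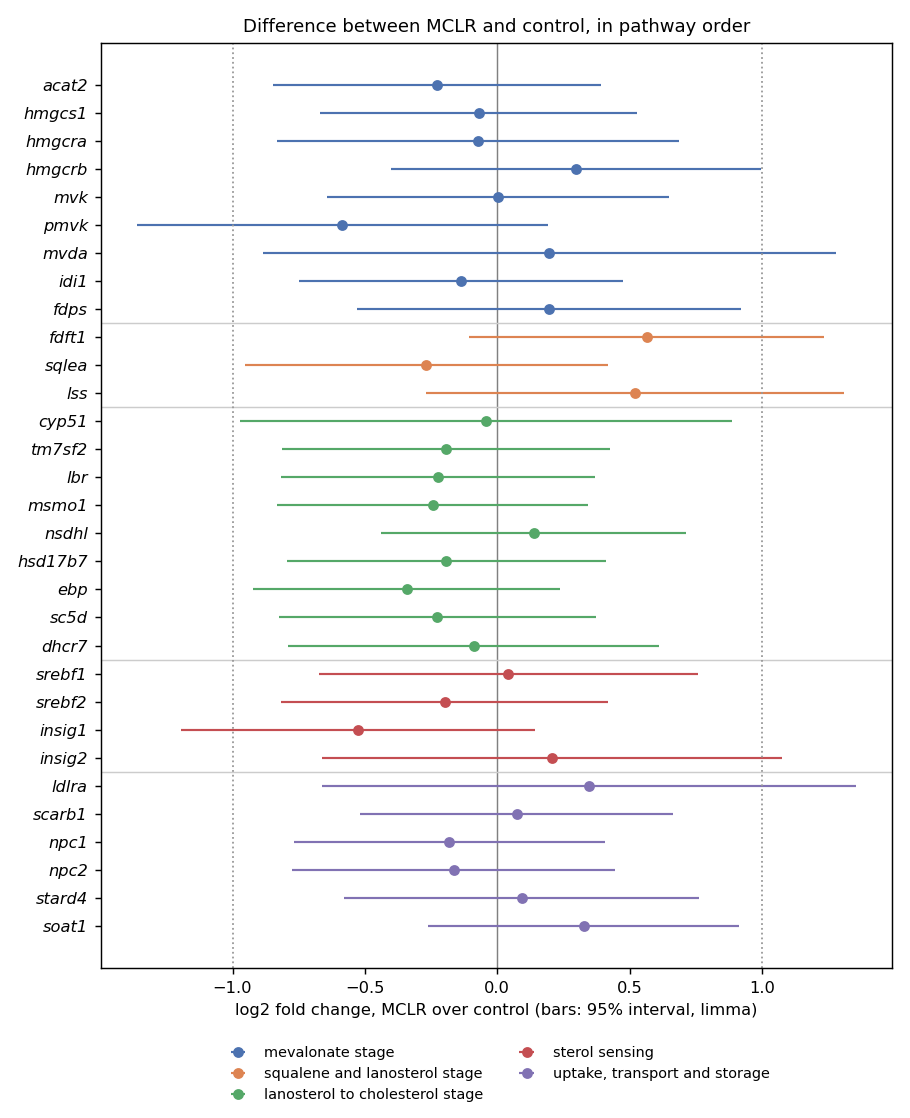
Log2 fold change of MCLR over control for the 31 sterol genes in pathway order, with 95% intervals from limma (n = 2 arrays per group) and dotted lines at a 2-fold difference. Every interval includes 0, and those of the 9 genes from lanosterol to cholesterol lie within the dotted lines.

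From lanosterol to cholesterol, values leaned one way. Of 9 genes, 8 had a negative log2 fold change and 1 a positive one, with a median of -0.19. The median was 0.08 over all genes, -0.02 over the genes with a mean level above 0 and 0.18 over the others. In 6 of the 9, both MCLR arrays lay below both controls. The share was 9.08% of all genes, 14.2% of those with a level above 0 and 6.46% of the others. It was 5 of 9 with quantile normalization, median scaling, background correction and the deposited table. Over all genes the shares in these settings were 13.3%, 13.9%, 13.0% and 13.3%. None of the 9 passed the test, the smallest adjusted p being 0.868 for ebp, and each 95% interval lay within a 2-fold difference. The sign count was 9 of 9 negative with quantile normalization and in the deposited table, and 8 of 9 with median scaling or background correction. With the mean of each gene's probes it was 7 of 9, with a median of -0.14, and with their median 7 of 9, with a median of -0.088.

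The isomerase gene ebp gave the lowest value of this stage. Its levels were -0.45 and -0.39 in MCLR against -0.12 and -0.04 in control. The replicates of each group lay close together and the groups apart, and the log2 fold change was -0.34 ± 0.23 (1.27-fold lower). Its other 2 probes gave -0.09 and -0.06. The desaturase gene sc5d, which acts after ebp, had 1.75 and 1.89 in MCLR against 1.96 and 2.13 in control, with a log2 fold change of -0.23 ± 0.24. Its dimmer probe went the other way, at 0.12.

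The demethylation steps gave like values. For msmo1, the methylsterol oxidase, levels were -0.39 and -0.49 in MCLR against -0.13 and -0.26 in control, and the log2 fold change was -0.24 ± 0.24. For hsd17b7, the ketosteroid reductase of the same complex, they were -1.53 and -1.69 in MCLR against -1.33 and -1.50 in control. Its log2 fold change was -0.19 ± 0.24, and the groups nearly met. Their partner nsdhl, the dehydrogenase that removes the carboxylated methyl group, was the exception in sign, with -3.07 and -3.06 in MCLR against -3.17 and -3.23 in control (0.14 ± 0.23). That sign became negative with quantile normalization, at -0.03.

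The reduction after cyp51 can be made by the products of tm7sf2 or lbr, the second of which is also the lamin B receptor of the nuclear envelope. Levels of tm7sf2 were 5.10 and 5.11 in MCLR against 5.15 and 5.45 in control. The log2 fold change was -0.19 ± 0.25, set mainly by control replicate 2, without which it was -0.04. Levels of lbr were 4.04 and 3.87 in MCLR against 4.14 and 4.22 in control, with a log2 fold change of -0.22 ± 0.24. Its 2 probes had values of -0.22 and -0.21, and the other probe of tm7sf2 had -0.08.

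At the ends of this stage the groups overlapped. The demethylase gene cyp51 had levels of -1.02 and -0.84 in MCLR against -1.36 and -0.41 in control. Both MCLR values lay between the controls, and the log2 fold change was -0.04 ± 0.37. The last enzyme, dhcr7, had 1.89 and 1.88 in MCLR against 1.71 and 2.24 in control, again inside the range of the controls (-0.09 ± 0.28), and its second probe gave -0.09. Without control replicate 2 the value of dhcr7 was 0.18 and that of cyp51 was 0.43.

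The size of the lean in the lanosterol stage depended in part on which arrays were included. Control replicate 2 was the highest array for 6 of the 9 genes. It was also the highest for 23.7% of all genes, with 41.5% of those with a mean level above 0 and 14.7% of the others. The stage has genes on both sides of that level. Control replicate 2 also carried the pancreas signal given above. Without it the stage had 6 of 9 genes negative and a median of -0.14. Without control replicate 1 the median was -0.31, with 8 of 9 negative. Without MCLR replicate 2 it was -0.14, also with 8 of 9 negative, and without MCLR replicate 1 it was -0.19, with 7 of 9.

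Genes that sense sterols gave values of both signs, 2 positive and 2 negative, with a median of -0.08. All 4 were negative with quantile normalization and after background correction, whereas 3 were positive with the mean of each gene's probes, with a median of 0.12. The factor gene srebf2, the SREBP that mainly drives cholesterol genes, had levels of 1.90 and 1.72 in MCLR against 2.13 and 1.89 in control. The higher MCLR array just exceeded the lower control, and the log2 fold change was -0.20 ± 0.25. Its other probes disagreed, with -0.38 and 0.65, the second from a dim probe. The gene srebf1, whose product mainly drives fatty acid synthesis, gave 0.04 ± 0.29. The value of srebf1 turned negative with quantile normalization (-0.083), with median scaling (-0.054), after background correction (-0.013) and in the table deposited by the authors (-0.084).

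Among these genes insig1 had the largest difference. It encodes a protein that retains SREBP in the endoplasmic reticulum and is itself an SREBP target in mammals. Its levels were -2.21 and -2.48 in MCLR against -1.64 and -2.005 in control. The groups did not overlap, and the log2 fold change was -0.53 ± 0.27 (1.44-fold lower, adjusted p = 0.723). Without control replicate 1 it was -0.34 and without control replicate 2 it was -0.71. A further probe of insig1 gave -0.52, while its dimmest probe, which was not well above background on control replicate 2, gave 0.99 and after background correction 0.02. The mean of the 3 probes was -0.02. Under quantile normalization the value of insig1 was -0.59 with an adjusted p of 0.846, and its paralogue insig2 gave 0.21 ± 0.35 with overlapping groups.

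Uptake, transport and storage genes were spread around 0. Their 6 measured members gave 4 positive and 2 negative values, with a median of 0.08, and with median scaling 2 positive and 4 negative, with a median of -0.01. With the mean of each gene's probes 5 were positive, with a median of 0.14, and with their median also 5, with a median of 0.24. The low-density lipoprotein receptor gene ldlra, a classical SREBP target, had -3.44 and -4.45 in MCLR against -4.51 and -4.08 in control. A single high MCLR array set its log2 fold change of 0.35 ± 0.40, which was -0.16 without MCLR replicate 1. The receptor gene for high-density lipoprotein, scarb1, was almost even, at 0.58 and 0.76 in MCLR and 0.59 and 0.60 in control (0.07 ± 0.24).

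The pair npc1 and npc2 encode proteins that export cholesterol from lysosomes. Levels of npc1 were 0.99 and 0.86 in MCLR against 1.06 and 1.15 in control, with a log2 fold change of -0.18 ± 0.23. Levels of npc2 were 1.94 and 1.98 in MCLR against 1.99 and 2.26 in control (-0.17 ± 0.24), and its value was -0.030 without control replicate 2. In both genes the MCLR arrays lay just below the controls, as in 9.08% of all genes and 14.2% of those with a mean level above 0. With median scaling or background correction this held for 1 of the 6 genes, against 13.9% and 13.0% of all genes. The other 2 probes of npc1 were dimmer and gave 0.22 and 0.32. The other 2 probes of npc2 gave -0.12 and 0.09.

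The sterol carrier gene stard4 gave 0.09 ± 0.27. The gene soat1, whose product esterifies cholesterol for storage, had levels of -3.83 and -3.73 in MCLR against -4.16 and -4.04 in control. Its groups did not overlap, and the log2 fold change was 0.33 ± 0.23 (adjusted p = 0.893). Its other probe did not stand well above background on either control array and was at least 2.69-fold higher in MCLR. It was kept only through the MCLR arrays, where it is high, so this value supports nothing. For the bound, each control array was given the weakest signal still marked above background there, or the probe's own if that was higher. After background correction the probes gave 0.02 and 0.17.

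Probes of 1 gene differed by brightness. The 31 genes had 62 probes, and 20 genes had more than 1. Of 31 further probes, each dimmer than the one that represents its gene, 26 had a higher log2 fold change than it, and in 10 genes the probes included opposite signs. Below a mean level of -3, 17 of 18 sterol gene probes were higher in MCLR, with a median of 0.34, and of the probes at or above -3 it was 17 of 44, with a median of -0.08. Probes of all genes showed the same order: below -3, 78.8% were higher with a median of 0.37, and at or above it 55.1% with a median of 0.03. After background correction the medians of the dim probes were 0.03 for sterol genes and 0.0097 for all genes. The dimmest probes of cyp51, insig1 and soat1 were kept only through the MCLR arrays, where they are high. They are in the counts above, so these counts are no support for a change under MCLR. Dim probes of all genes passed the same filter.

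Within single genes the probes could differ in sign or in size. The representing probe of cyp51 gave -0.04, and its other 3 gave 0.16, 1.03 and 1.04, of which the last was not well above background on control replicate 2. After background correction the last 2 were at 0.24 and 0.05. The dimmer probe of srebf1 gave 0.70 against 0.04 for the brighter one, and 0.15 after correction. The dimmest probe of acat2 gave 0.50 against -0.23 for its brightest one, and 0.03 after correction. The 4 probes of hmgcs1 gave -0.27 to 0.15, and fdps had -0.0019 beside 0.19. With the median over a gene's probes, the sterol genes had 17 positive and 14 negative values and a median of 0.08, and the median over all genes was 0.12.

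**Figure D3:**
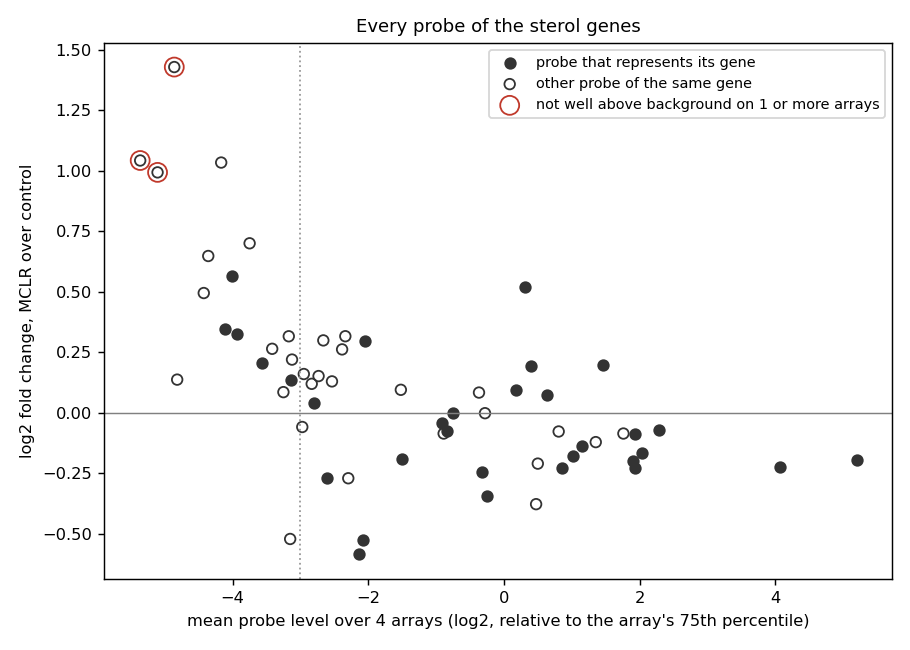
Log2 fold change of MCLR over control against mean level for all 62 probes of the 31 sterol genes, both on log2 scales, with filled points for the probe that represents each gene and a dotted line at a level of -3. To the left of the line 17 of 18 probes lie above 0. The 3 ringed probes failed the background mark on at least 1 control array and were kept only through the MCLR arrays.

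Further genes of sterol biology were counted from lists of related pathways. Of 24 other sterol pathway genes tested, 12 were positive and 12 negative, with a median of -0.02 and 0 past the adjusted threshold or an unadjusted p of 0.05. The lipoprotein receptor ligase gene mylipa gave -0.47 ± 0.33, the SREBP protease gene mbtps1 0.35 ± 0.26 and the prenyltransferase gene pggt1b 0.40 ± 0.32. Another probe of mbtps1 gave -0.05.

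The joint list of sterol efflux genes and liver X receptor targets had mostly negative values, and none passed the test. Of 12 tested, 9 were negative, against 38.6% of all genes, with a median of -0.23. The count past the adjusted threshold was 0, with a smallest adjusted p of 0.774. The 9 include mylipa and mylipb, which are also counted among the other sterol pathway genes. The apolipoprotein gene apoeb had 3.18 and 4.27 in MCLR against 5.05 and 4.15 in control. Its log2 fold change was -0.88 ± 0.48, and its highest array was control replicate 1, where the brain markers were also highest. The part of the brain signal in this value was not tested. The lipid transporter gene abcg1 had -0.51 ± 0.34, but its 3 probes ran up to 2.18. Over the alternative settings its value ran from -0.93 to 1.82. The gene pltp, for a lipid transfer protein, had -0.47 ± 0.42, with another probe at 0.54. Of 7 genes of sterol breakdown, 6 were positive, against 61.4% of all genes. Their median was 0.32 and their smallest adjusted p 0.926. Among them were hsd3b7 at 0.32 ± 0.25, amacr at 0.32 ± 0.27, ch25h at 0.35 ± 0.42 and the bile acid gene cyp7a1 at 0.53 ± 0.65. Another probe of cyp7a1 gave 1.66.

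The fatty acid branch of SREBP had 8 of 10 genes negative, against 38.6% of all genes, and a median of -0.19. The gene insig1 is counted in this branch too. One of its genes, scd, for stearoyl-CoA desaturase, had an unadjusted p under 0.05, in the positive direction. This was 1 of 10 genes, against 9.2% of all genes, so the share was near the background. It was at -3.83 and -3.78 in MCLR against -4.66 and -4.41 in control. The arrays fell into 2 clear groups, with a log2 fold change of 0.73 ± 0.24 and an adjusted p of 0.409, but the probe is dim and gave 0.12 after background correction. The 3 probes of scd ran from 0.08 to 0.73. The desaturase gene fads2 had 0.33 and 0.24 in MCLR against 0.88 and 0.59 in control, a log2 fold change of -0.45 ± 0.25. Its 7 probes ran from -0.45 to 0.05. The lipin gene lpin1a gave -0.55 ± 0.36, with another probe at 0.32.

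Users of cholesterol in steroid synthesis were also split, with 4 of 11 positive, a median of -0.06 and a smallest adjusted p of 0.646. The gene with the smallest p was hsd11b2, which turns over 11-oxygenated steroids, at 1.496 and 1.65 in MCLR against 1.91 and 2.57 in control (-0.67 ± 0.31). The side-chain cleavage gene cyp11a1.1 was at 1.41 and 1.49 in MCLR against 0.22 and 1.51 in control. Here 3 arrays were alike and control replicate 1 was low, and the log2 fold change was 0.59 ± 0.45. The androgen gene cyp11c1 had the same shape, at 3.58 and 3.62 in MCLR against 2.48 and 3.59 in control (0.56 ± 0.41), and the dim cyp17a2 gave 0.39 ± 0.28. The summed signal of the 6 Leydig cell genes, which include cyp11c1 and cyp11a1.1, was 43.8 and 57.8 in MCLR against 42.3 and 69.0 in control.

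**Figure D4:**
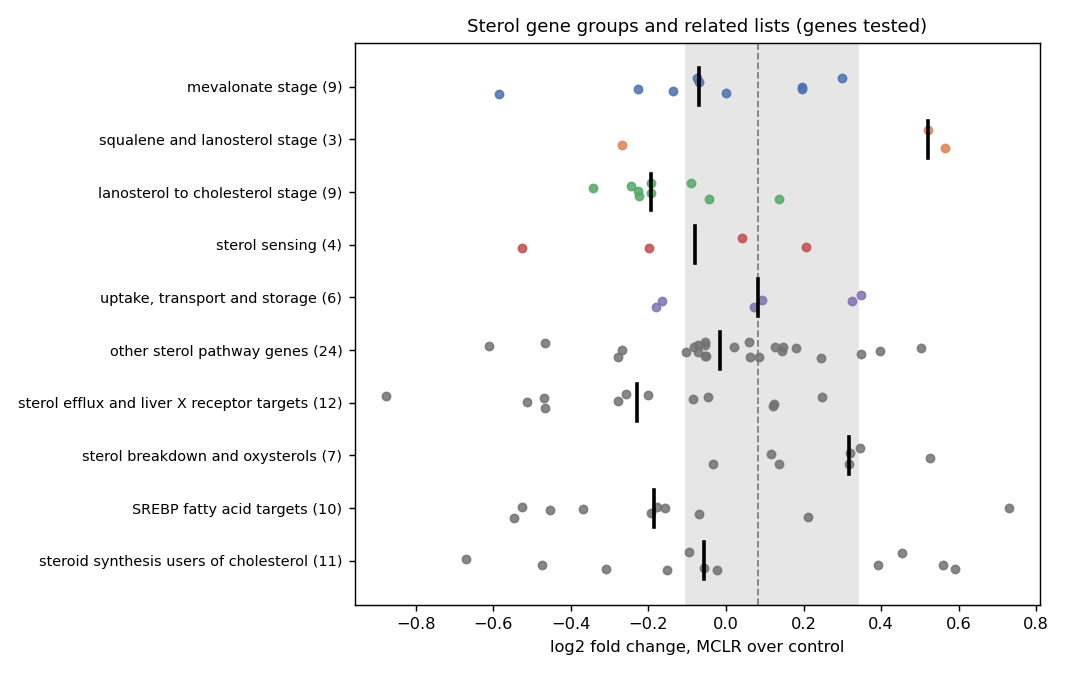
Log2 fold change of MCLR over control for each tested gene of the 5 sterol gene groups (coloured) and of 5 related lists (grey), with a black bar at each group's median and the number of genes in brackets. The shaded band spans the middle of all 24330 genes, from -0.10 to 0.34 around a dashed median of 0.08. The median of the lanosterol to cholesterol stage, -0.19, lies to the left of the band. So do those of the efflux and liver X receptor list (-0.23) and the fatty acid list (-0.19). The median of the squalene and lanosterol stage, 0.52, lies to the right of the band.

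Across 15 alternative settings, the sign of 15 of the 31 genes was the same in every setting run, negative in 11 and positive in 4. The 11 were pmvk, idi1, sqlea, tm7sf2, lbr, msmo1, hsd17b7, ebp, sc5d, insig1 and npc2, and the 4 were hmgcrb, fdft1, lss and soat1. The signs of the remaining 16 turned in at least 1 setting. Much of this was fixed in advance. Changed filters on dim probes, the replicate block and the prior left sterol gene values as reported. Genes with 1 probe could not change with the mean or median of probes. Genes whose groups did not overlap could not turn when 1 array was left out. A kept sign is therefore little support for a direction.

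**Figure D5:**
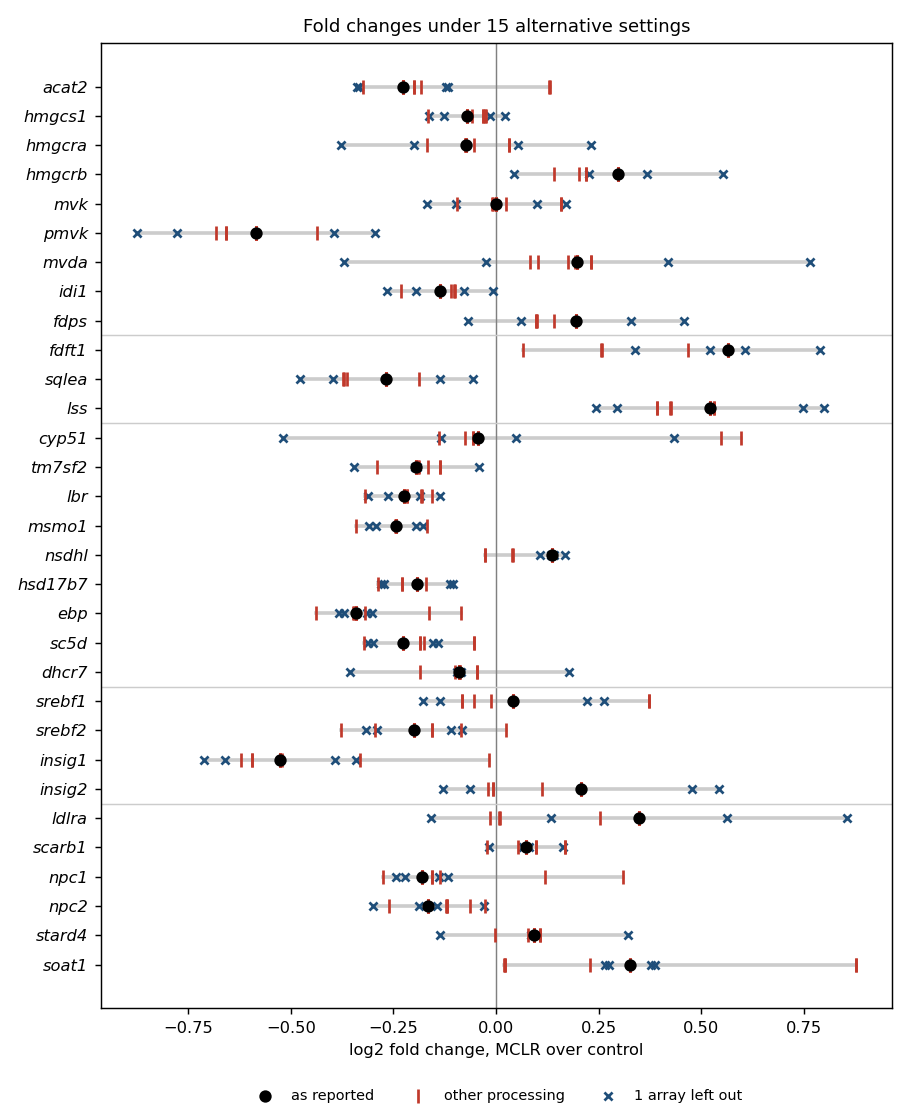
Log2 fold change of MCLR over control for each sterol gene as reported (black), under other processing (red bars) and with 1 array left out (blue crosses), with genes in pathway order. The values of ebp stay between -0.44 and -0.09 and those of msmo1 between -0.34 and -0.17, whereas those of cyp51 reach from -0.52 to 0.60.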

How the data were processed

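The file headers name Agilent Feature Extraction 11.0.1.1 as the source of the scanner output. Its processed signal is a linear intensity from which the authors' software had already removed the background, per the file headers, with no scaling between arrays. Spot and background medians, used for one alternative, are intensity values from the same deposited files. The deposited table of log2 values has the same median (5.90) in each column; its tool and centring are not given in the sources used here. It correlated with the log2 processed signal at 0.992 to 0.995 and served as an alternative.

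Each array's log2 75th percentile was subtracted from its log2 processed signals. After outlier spots had been set aside, 60 probes lacked a value on at least 1 array and were left out. Transcript identifiers were matched to RefSeq gene names (assembly GRCz12tu), which named 25978 of 43603 probes (59.6%); unnamed probes kept their identifiers in the test. Probes well above background on both arrays of a group were kept, with the brightest representing each gene (24330 genes). Between 81.9% and 88.2% of spots stood well above background, and 0 were saturated.

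Groups were tested with limma 3.58.1 (R 4.3.3; group only, eBayes, two-sided, Benjamini-Hochberg at 0.05). With 2 residual and 3.52 prior degrees of freedom, an unadjusted p of 0.05 took a log2 fold change of 0.69 at the median standard error (0.28). The fit was tested on simulated data first. There 0% of log2 fold changes of 1 and 16.2% of those of 2 passed the adjusted threshold. An unadjusted p under 0.05 was reached by 77.6% and 97.4% of them, and by 0 of the 31 sterol genes in the comparison as reported. The absence of adjusted calls among the sterol genes therefore cannot by itself exclude changes of such sizes. The intervals given in the Results do bear on them, and for 24 of the 31 genes they excluded a 2-fold difference. Alternatives changed the scaling, the background correction, the filter on dim probes, the rule for several probes, the prior, the replicate block and the arrays included. The members and lists were chosen with earlier results of these data known. Members were described in full if their absolute log2 fold change was at least 0.4, or 0.3 without overlap, or their probes differed in sign, as were some others; up to 4 genes with the smallest p were taken from each related list. One gene so chosen is not reported here. Python 3.11.15 with pandas 2.3.3, scipy 1.17.1 and matplotlib 3.10.9 was used.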

Additional observations from a re-analysis of the deposited data

How the results depend on the processing

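Of 460 values of sterol genes under the alternatives, 418 kept their direction, many of them in settings that could not change it. None passed the adjusted threshold, which says nothing about stability with 2 arrays per group. The count of genes called over the whole array was 214 with median scaling (208 higher, 6 lower), 2 under a robust, trended prior, and ran from 0 to 328 with 1 array left out (214 without control replicate 1, 328 without control replicate 2, 0 without either MCLR array); in the other settings it was 0. Unadjusted p under 0.05 numbered 2239 genes in the comparison as reported. Of the sterol genes, insig1 had such a p with quantile normalization (1402 of all genes) and in the deposited table (1418). After background correction 3 did: ebp, insig1 and pmvk (623 of all genes). With the mean or median of probes soat1 did (2554 and 2486), 1 of its probes being kept only through the MCLR arrays. The median log2 fold change of the sterol genes was -0.17 with median scaling, 0.092 when probes were averaged and 0.083 with the median of the probes, and ran from -0.17 to -0.0078 with 1 array left out. With the replicate number as a block (replicate block), the calls stayed at 0. The median was -0.074, which this block cannot change, as each number has 1 array in each group. Deviations of same-numbered arrays from their group means were weakly correlated over genes (r = 0.19). With 2 arrays per group this value cannot show pairing, and the labels do not say that a number marks a shared experiment.

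Signs turned as follows; the cause was not tested. With probes averaged: acat2 0.13, hmgcra 0.032, cyp51 0.55, srebf2 0.024 and npc1 0.12. With their median: acat2 0.13, hmgcra 0.032, cyp51 0.60 and npc1 0.31. With quantile normalization: mvk -0.0074, nsdhl -0.027, srebf1 -0.083 and insig2 -0.0077. In the deposited table: mvk -0.0096, nsdhl -0.028, srebf1 -0.084 and insig2 -0.0079. With median scaling: mvk -0.095, srebf1 -0.054, scarb1 -0.023 and stard4 -0.0038. After background correction: srebf1 -0.013, insig2 -0.019 and ldlra -0.015. With 1 array left out, values ran from -0.16 to 0.022 for hmgcs1, -0.38 to 0.23 for hmgcra, -0.17 to 0.17 for mvk, -0.37 to 0.76 for mvda, -0.068 to 0.46 for fdps, -0.52 to 0.43 for cyp51, -0.36 to 0.18 for dhcr7, -0.18 to 0.26 for srebf1, -0.13 to 0.54 for insig2, -0.16 to 0.86 for ldlra, -0.018 to 0.16 for scarb1 and -0.14 to 0.32 for stard4. Where 1 array was left in a group, its spread was taken from the other group.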
